A study of Brassica napus with 16 samples.

Results

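Genes with neighbouring identifiers on chromosome A02 of Brassica napus (oilseed rape), from BnaA02g27480D to BnaA02g30650D, had higher expression values in the cultivar 2063A than in the cultivar B409 across 3 stretches, and by a smaller factor in the genes between those stretches. Members were the genes of that range that reached an FPKM of 1 in 2 or more of the 16 libraries. FPKM is the number of sequenced fragments of a gene relative to its transcript length and to the mapped fragments of the library. This gave 175 members of 318 listed identifiers, out of 54206 genes that passed the same filter among 101040 listed in the whole series. The first stretch ran from BnaA02g27480D to BnaA02g27710D and held 12 members of 24 identifiers. The second ran from BnaA02g28540D to BnaA02g28950D (29 of 42) and the third from BnaA02g30110D to BnaA02g30650D (29 of 55). The first gap between them held 44 members of 82 identifiers and the second gap 61 of 115. The 3 stretches were chosen by their 2063A minus B409 differences in these same libraries, so every value of 2063A against B409 is given as a description. Counts of limma calls in that contrast stand only beside the share of all tested genes, and nothing is read from them.

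Each library came from 1 of 4 tissues (root, young leaf, flower bud and silique) of 1 of the 2 cultivars, with 2 replicates in each of the 8 groups. Young leaves were taken from 2-week seedlings in hydroponics and roots 7 d after planting on filter paper, both in a growth chamber. Flower buds of at most 2 mm and siliques (seed pods) of 3 to 5 cm came from field plants, so tissue cannot be told apart from plant age and growing place. The labels name no mutation, transgene or treatment for either cultivar, and do not say whether replicates came from separate plants. The p-values therefore rest on a spread between libraries that may be technical only.

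Brassica napus is an allotetraploid, whose nucleus carries an A and a C subgenome that descend from a turnip-like and a cabbage-like ancestor. Many genes therefore have a near-identical partner, the homeolog, on the matching chromosome of the other subgenome, and chromosome A02 has its counterpart in large part in chromosome C02. Oilseed rape cultivars are known to differ in exchanges between such chromosome pairs, which replace copies of one subgenome by copies of the other over runs of neighbouring genes. The libraries measured RNA and no gene copies. The sources used here do not say how reads matching both homeologs were assigned, which leaves the values of near-identical partners uncertain. None of the identifiers was paired with a gene name, so members are given by identifier, and the tissue labels could not be checked against marker genes.

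The summed FPKM of a library lay between 519039 and 617686, and 33483 to 41456 genes per library had an FPKM of 1 or more. The step between low values put the depth of the deepest library at 2.75 times that of the shallowest, with a median of 1.78 times the shallowest in 2063A and 1.52 times in B409. Replicates of young leaf differed most: the median member differed by 0.27 (2063A) and 0.26 (B409) on the log2(FPKM + 1) scale between the replicates of young leaf, and by 0.10 to 0.18 in the other tissues. Of the 143 identifiers of the range that did not pass the filter, 91 were listed at 0 in all 16 libraries, 23 were above 0 in 2063A alone, 3 in B409 alone and 26 in both. The same split over all genes below the filter was not worked out, so nothing is read from these counts. The members nearest to the filter were BnaA02g30610D and BnaA02g27730D, with a second-highest FPKM of 1.09 and 1.11, and the nearest outside it were BnaA02g29190D (0.951) and BnaA02g27680D (0.927).

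The number of stretch members with an FPKM of 1 or more was higher in each library of 2063A than in any library of B409. Of the 70 stretch members, 53 to 63 reached that level in a library of 2063A (median 57.5, n = 8) and 34 to 44 in a library of B409 (median 41.5, n = 8). Of the 105 gap members, 64 to 86 reached it in 2063A (median 73.5) and 49 to 73 in B409 (median 63.5), and here the cultivars overlapped. Among the 1928 tested genes of the rest of A02 the counts were 1153 to 1453 in 2063A and 1177 to 1374 in B409. An FPKM of 1 or more in all 8 libraries of a cultivar was found for 45 stretch members in 2063A and for 23 in B409, and for 46 and 35 gap members. In the rest of A02 it was found for 848 of the 1928 tested genes in 2063A and for 824 in B409.

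**Figure D1:**
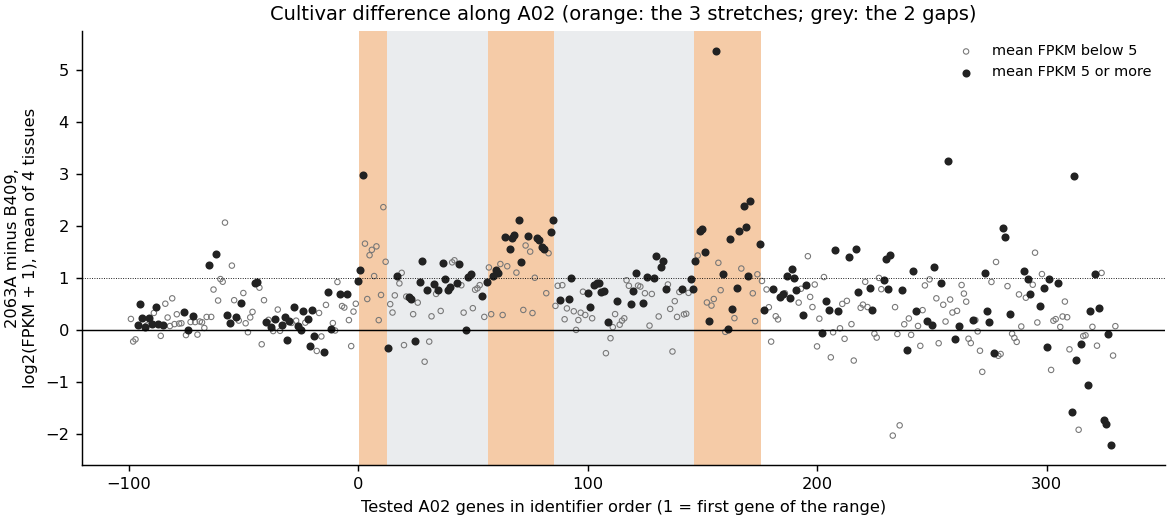
Difference between 2063A and B409 on the log2(FPKM + 1) scale, averaged over the 4 tissues, for each tested gene of this region of A02 in the order of its identifier number. Filled points have a mean FPKM of 5 or more. Points in the 3 stretches (orange) lie mostly above 1 and points in the 2 gaps (grey) mostly between 0 and 1. The 50 tested genes before the range have a median of 0.19 and the 50 after it a median of 0.54.

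The difference was present in the gaps as well as in the stretches. On the log2(FPKM + 1) scale, averaged over the tissues, the median difference between 2063A and B409 was 1.37 in the first stretch, 0.76 in the first gap, 1.47 in the second stretch, 0.58 in the second gap and 1.08 in the third stretch. The median was 0.12 over the rest of A02 and 0.04 over all tested genes. The difference was above 0 in 69 of the 70 stretch members and 96 of the 105 gap members, against 56.1% of all tested genes. The added 1 in this scale shrinks the difference of genes with low values.

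Ratios of FPKM, which do not depend on that added 1, were therefore taken for the 81 members with a mean FPKM of 5 or more. In the second stretch the median ratio of 2063A over B409 was 3.70 (interquartile range 2.95 to 3.92, 16 members) and in the third stretch 3.08 (2.19 to 3.88, 17 members). In the first gap it was 1.92 (1.67 to 2.23, 21 members) and in the second gap 1.88 (1.66 to 2.26, 25 members). The first stretch had only 2 such members, BnaA02g27480D with a ratio of 2.5 and BnaA02g27500D, which was listed at 0 in 7 of the 8 libraries of B409. The rest of A02 had a median ratio of 1.10 (784 genes) and all tested genes 1.02 (21593 genes). Of the 46 gap members, 36 had a log2 ratio between 0.5 and 1.5, and of the 16 members of the second stretch, 13 had one between 1.5 and 2.5. The third stretch was less even, with 7 of its 17 members between 1.5 and 2.5, 4 between 0.5 and 1.5, 3 lower than that and 3 above 2.5.

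**Figure D2:**
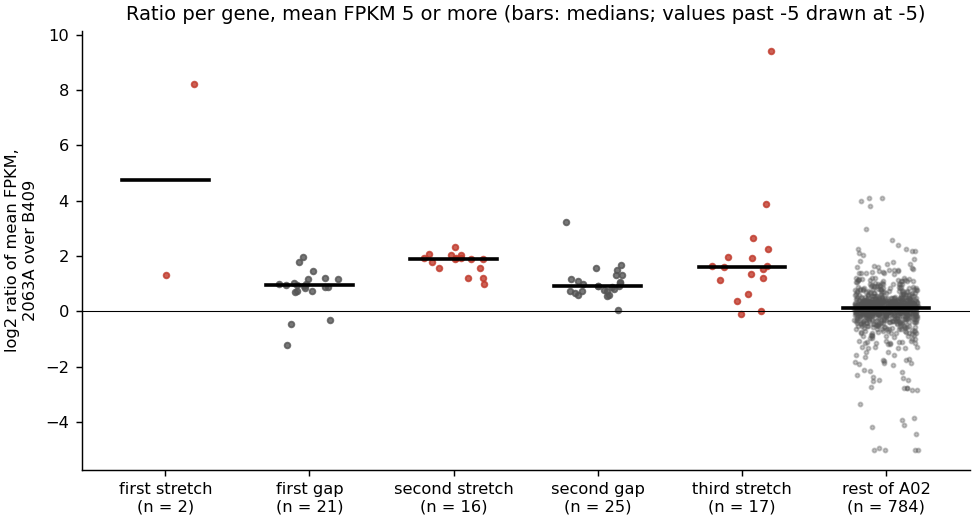
Log2 ratio of the mean FPKM over 8 libraries of 2063A to that over 8 libraries of B409, with 1 point per gene with a mean FPKM of 5 or more and a bar at the median of each segment. The points of both gaps crowd near a log2 ratio of 1, those of the second stretch near 2, and the rest of A02 lies around 0.

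Called higher means a limma adjusted p below 0.05 (Benjamini-Hochberg over all tested genes) and a difference of at least 2-fold. Averaged over the tissues, 50 of the 70 stretch members and 14 of the 105 gap members were called higher in 2063A and 0 were called lower, where 3.79% of all tested genes were called higher and 3.72% lower. At an unadjusted p below 0.05 with no fold threshold, limma put 0 stretch members and 6 gap members lower in 2063A. The rule that chose the members used this contrast, so nothing is read from these shares. By segment, 9 of 12 members were called in the first stretch, 24 of 29 in the second and 17 of 29 in the third, and 9 of 44 in the first gap and 5 of 61 in the second. All 8 libraries of 2063A lay above all 8 of B409 for 26 stretch members and 10 gap members, which held for 2.12% of all tested genes. The opposite order, found for 1.81% of all tested genes, was found for 0 members. With a pseudocount of 0.1 in place of 1 the calls were 57 in the stretches and 40 in the gaps, where 8.07% of all tested genes were called higher.

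In the first stretch the largest difference between the cultivars was that of BnaA02g27500D. In 2063A it had an FPKM of 4.20 and 4.37 in young leaf, 1.66 and 1.80 in flower bud, 8.69 and 8.85 in silique and 28.5 and 31.5 in root. In B409 it was listed at 0 in 7 libraries and at 0.303 in 1 root library. The gene thus differed between tissues within 2063A by more than its replicates did, and no value of B409 reached any value of 2063A (difference 2.97, SE 0.07). BnaA02g27670D ranged from 2.43 to 10.8 in 2063A (median 7.79) and from 0 to 1.29 in B409 (median 0.302), again without overlap.

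The other members of the first stretch had lower values or smaller ratios. BnaA02g27600D had 5.25 to 9.11 FPKM in 2063A (median 7.28) and 0.774 to 2.65 in B409 (median 1.66). BnaA02g27520D had 0.329 to 12.6 in 2063A (median 6.84) and 0.165 to 2.69 in B409 (median 1.20), and the 2063A young leaf library with 0.329 lies inside the range of B409. BnaA02g27480D, with the highest mean FPKM of the stretch beside BnaA02g27500D, had 8.84 to 31.3 in 2063A and 4.01 to 10.6 in B409. The overlaps are between tissues: within each tissue both replicates of 2063A were above both of B409 for BnaA02g27480D and BnaA02g27520D. The smallest differences of the stretch were those of BnaA02g27620D (0.19, SE 0.11), which was at 12 and 12.4 in young leaf of 2063A and at 7.07 and 12.6 in young leaf of B409, and of BnaA02g27530D (0.59, SE 0.09), which exceeded 1 FPKM in only 2 libraries. BnaA02g27570D was listed at 0 in all 8 libraries of B409 and ranged from 0.0661 to 4.13 in 2063A.

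The second stretch had the highest median ratio among the segments with more than 2 members at a mean FPKM of 5 or more. Summed over its 29 members, FPKM lay between 708 and 821 in the 8 libraries of 2063A and between 196 and 262 in the 8 of B409. The sum thus varied little between tissues in either cultivar, although single members varied widely between tissues. The ratio of the sums was 4.11 for young leaf, 2.97 for flower bud, 3.50 for silique and 3.57 for root.

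**Figure D3:**
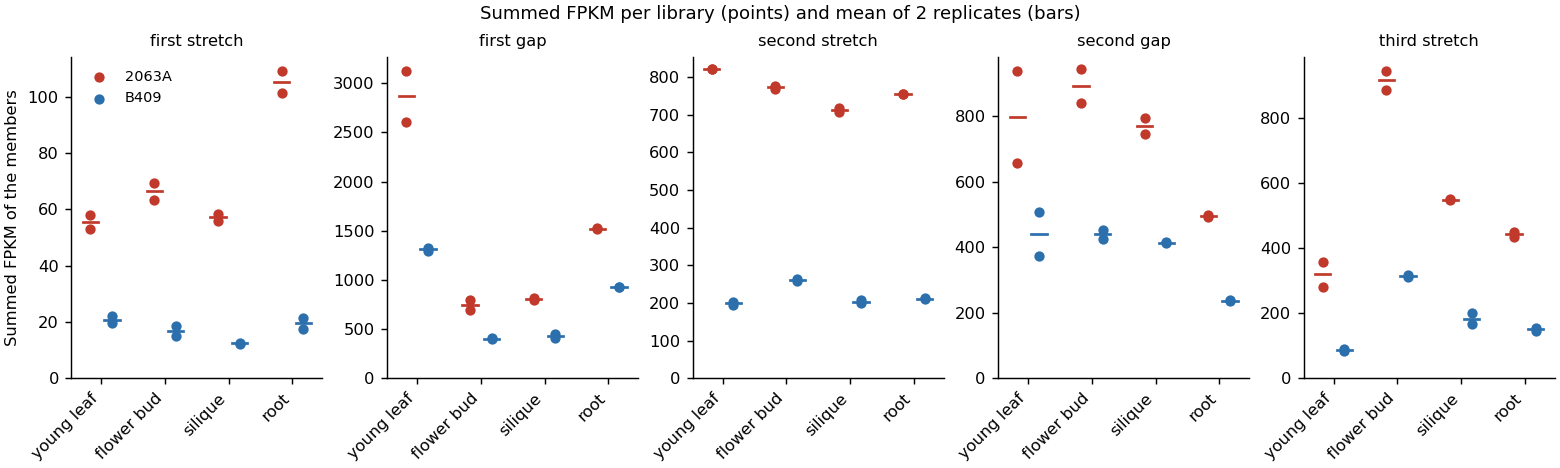
Summed FPKM of the members of each segment in every library (points) with the mean of the 2 replicates (bars), 2063A beside B409 for each tissue. In the second stretch all libraries of 2063A lie at 708 to 821 and all of B409 at 196 to 262, and in each segment and tissue both libraries of 2063A lie above both of B409.

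BnaA02g28940D had an FPKM of 65.1 and 70.0 in young leaf, 142 and 146 in flower bud, 115 and 120 in silique and 141 and 139 in root of 2063A. In B409 it had 16.6 and 14.4 in young leaf, 45.1 and 44.9 in flower bud, 31.0 and 30.7 in silique and 36.5 and 34.6 in root. Every library of 2063A was above every library of B409, the replicates were close, and young leaf was the lowest tissue in both cultivars (difference 1.89, SE 0.06). Its neighbour BnaA02g28950D ranged from 64.6 to 108 in 2063A (median 75.3) and from 6.40 to 31.1 in B409 (median 18.6), also without overlap.

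BnaA02g28660D, the member of the second stretch with the highest mean FPKM, followed tissue more strongly than cultivar. It had 294 and 309 in young leaf, 101 and 93.1 in flower bud, 154 and 151 in silique and 3.6 and 3.89 in root of 2063A. The values in B409 were 77.2 and 75.3 in young leaf, 22.5 and 26.2 in flower bud, 47.5 and 41.8 in silique and 0.456 and 0.984 in root. In each tissue 2063A was higher, and the order of the tissues was the same in both cultivars. BnaA02g28740D had the largest difference of the stretch (2.11, SE 0.12), with 18.7 to 61.3 FPKM in 2063A and 3.91 to 10.4 in B409. BnaA02g28720D varied less between tissues than BnaA02g28660D, at 63.9 to 99.4 in 2063A and 17.2 to 26.4 in B409, a ratio of 3.67.

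Among the second-stretch members with a mean FPKM of 5 or more, the lowest ratios were at its start, a split made after the values were seen. The first 3 members with a mean FPKM of 5 or more, BnaA02g28570D, BnaA02g28590D and BnaA02g28610D, had ratios of 2.01, 2.32 and 2.29. The other 13, from BnaA02g28660D on, had ratios of 2.94 to 4.98. The lowest differences of the stretch were those of BnaA02g28650D and BnaA02g28560D, which were at or near 0 outside root. In root BnaA02g28650D had 13 and 10.7 in 2063A and 4.59 and 5.04 in B409, and BnaA02g28560D had 2.77 and 2.99 in 2063A and 1.09 and 0.390 in B409. Their small mean difference over tissues comes from 3 tissues with values of 0 or close to it in both cultivars.

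The third stretch held the widest difference of the range. BnaA02g30290D had 19.4 and 17.8 in young leaf, 58.2 and 54.4 in flower bud, 57.4 and 72.8 in silique and 52.5 and 47.3 in root of 2063A. In B409 it was listed at 0 in both young leaf and both root libraries and in 1 flower bud library, and had 0.254 in the other flower bud library and 0.224 and 0.0808 in silique. The cultivars were separated in every tissue (difference 5.37, SE 0.08). Its neighbour BnaA02g30300D was listed at 0 in all 8 libraries of B409 and ranged from 0.0903 in root to 6.43 in young leaf of 2063A. BnaA02g30250D was also listed at 0 in all 8 libraries of B409 and reached 1.55 in root of 2063A.

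**Figure D4:**
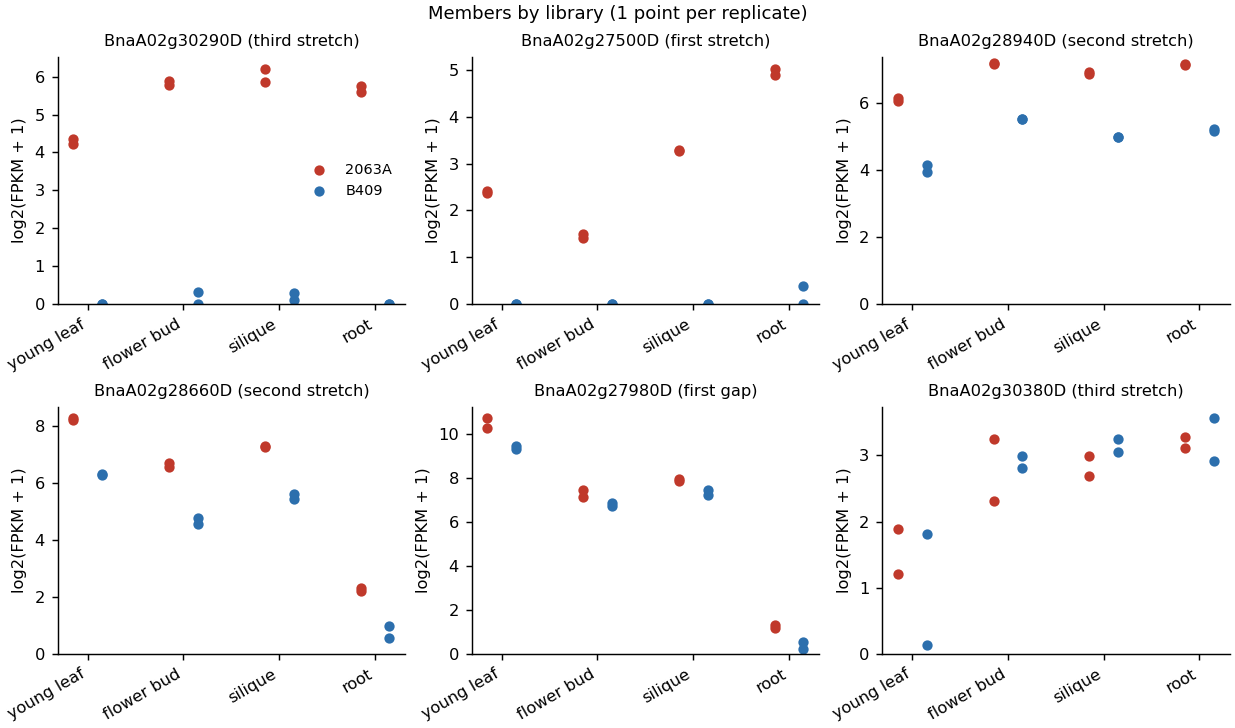
Level on the log2(FPKM + 1) scale in each library for 6 members, with 2063A to the left of B409 in each tissue and 1 point per replicate. BnaA02g30290D and BnaA02g27500D lie at or near 0 in B409, BnaA02g28940D and BnaA02g28660D keep a gap between the cultivars in each tissue, BnaA02g27980D differs mainly between tissues, and the cultivars overlap for BnaA02g30380D.

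BnaA02g30570D ranged from 2.32 to 33.0 in 2063A (median 6.77) and from 0.0527 to 2.56 in B409 (median 0.515), with its highest values in flower bud in both cultivars. BnaA02g30520D had 14.6 to 56.3 in 2063A and 3.68 to 9.69 in B409, and BnaA02g30530D had 8.53 to 34.3 in 2063A and 1.70 to 7.46 in B409, neither with overlap. The member of the third stretch with the highest mean FPKM was BnaA02g30400D, at 46.9 to 142 in 2063A and 6.10 to 58.4 in B409. In flower bud it had 136 and 142 in 2063A and 49.2 and 58.4 in B409, so the overlap of the ranges is between tissues.

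Some members of the third stretch did not differ between the cultivars by more than their replicates. BnaA02g30370D ranged from 0.325 to 3.27 in 2063A and from 0.511 to 2.85 in B409 (difference -0.04, SE 0.14). BnaA02g30380D ranged from 1.31 to 8.68 in 2063A and from 0.0914 to 10.8 in B409 (difference 0.02, SE 0.24). Both lie inside the stretch with called members on either side, among them BnaA02g30290D and BnaA02g30400D. BnaA02g30230D, chosen here after its values were seen, had a ratio of 1.01: it was at 6.38 and 6.14 in root of 2063A and at 10.3 and 11.2 in root of B409, while its flower bud values were 4.87 and 4.88 in 2063A and 3.43 and 2.57 in B409. In these libraries 2063A was thus lower in root and higher in flower bud. For root, limma put 0 stretch members lower in 2063A at an unadjusted p below 0.05, so the lower values there did not pass a test.

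The gap members with the largest differences were BnaA02g28180D and BnaA02g27940D in the first gap and BnaA02g29830D and BnaA02g29890D in the second. BnaA02g27940D had 12.7 to 35.3 FPKM in 2063A (median 19.7) and 4.55 to 11.3 in B409 (median 7.42), without overlap (difference 1.33, SE 0.12). BnaA02g29890D had 5.53 to 12.3 in 2063A and 1.59 to 4.99 in B409, also without overlap. BnaA02g28180D was highest in flower bud of 2063A, at 8.10 and 7.56, where B409 had 0.676 and 0.516. For BnaA02g29830D the young leaf replicates of 2063A stood apart from each other at 27.7 and 62.6, and B409 had 8.22 and 8.55.

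The gaps also held the 4 members with the lowest differences by the rule, and each of these was called lower in 2063A in 1 tissue. They were picked for their low differences, so nothing is read from these calls. For 2 of them the filter also bears on the call. BnaA02g27720D passed it through root alone and BnaA02g29970D through silique of B409 alone. BnaA02g27720D, the first member after the first stretch, had 18.9 and 15.6 in root of 2063A and 38.3 and 42.1 in root of B409, and at most 0.248 in any other library. BnaA02g27970D had 5.44 and 5.67 in flower bud of 2063A and 21.2 and 22.0 in flower bud of B409. BnaA02g29970D was at 0 and 0.0664 in silique of 2063A and at 2.36 and 1.84 in silique of B409. For BnaA02g29440D the young leaf replicates of B409 were 10.2 and 3.75, against 2.97 and 2.01 in 2063A. The first 3 of these genes were close to 0 in some or all of the other tissues. BnaA02g28130D in the first gap, named after its values were seen, had 842 and 698 in young leaf and 1106 and 1103 in root of 2063A, and 451 and 313 in young leaf and 690 and 689 in root of B409, a ratio of 1.82.

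On the log2(FPKM + 1) scale the edges of the stretches were steps in some places and not in others. At the start of the range, BnaA02g27470D just outside had a difference of 0.93 (SE 0.06) and BnaA02g27480D just inside 1.15 (SE 0.12). The difference was 1.31 in BnaA02g27710D at the end of the first stretch and -0.35 in BnaA02g27720D after it. BnaA02g27720D passed the filter through root alone, and the next tested gene, BnaA02g27730D, had a difference of 0.49. At the start of the second stretch BnaA02g28420D outside had 0.91 and BnaA02g28540D inside 1.20. Its end was wider, with 2.1 in BnaA02g28950D inside and 0.46 in BnaA02g28960D outside. BnaA02g28960D had no value above 2.44 FPKM and passed the filter through root of 2063A alone. Its log2 ratio of mean FPKM was 4.45, but a gene that passed in this way had to be high in 2063A. Nothing is therefore read from that ratio. The tested genes that follow it, BnaA02g28980D, BnaA02g29010D and BnaA02g29020D, had log2 ratios of 1.42, 0.73 and 1.07. These were lower than the 2.05 of BnaA02g28950D inside the stretch. At the start of the third stretch the differences were 0.79 in BnaA02g30100D outside and 1.32 in BnaA02g30110D inside. At its end they were 1.66 in BnaA02g30650D inside and 0.94 in BnaA02g30660D outside. Only at the ends of the first and second stretch did the genes on both sides differ by 1 or more on the log2(FPKM + 1) scale. At both of these ends the outside gene had passed the filter through root alone.

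Blocks of 50 tested genes were compared on both sides of the range. The block before it had a median difference of 0.19 and a median FPKM ratio of 1.19 over its genes with a mean FPKM of 5 or more. Averaged over the tissues, limma called 0 of its 50 genes in either direction, also at an unadjusted p below 0.05 with the 2-fold threshold kept. Without that threshold, limma put 24 higher and 4 lower in 2063A at an unadjusted p below 0.05. By tissue, 5 genes for young leaf, 5 for flower bud, 4 for silique and 6 for root passed the unadjusted p with the 2-fold threshold. The shares of all tested genes at these unadjusted thresholds were not worked out, so nothing is read from these counts. The 3 blocks after the range had median differences of 0.54, 0.35 and 0.25 and median FPKM ratios of 1.64, 1.69 and 1.37. Averaged over the tissues, 7, 6 and 9 of their genes were called higher and 0, 2 and 4 called lower. A running median over 15 genes with a mean FPKM of 5 or more was highest on A02 between BnaA02g28590D and BnaA02g28950D, at a ratio of 3.71. Around the range its log2 value stayed at 0.5 or more without a break, past both ends. The first and last such windows were centred on BnaA02g27310D and BnaA02g31910D. On C02 the lowest running median was at a ratio of 0.139, between BnaC02g37910D and BnaC02g39310D, where 2063A was lower than B409. Whether these C02 genes are the partners of the A02 members was not tested, nor was their part in the A02 values.

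By tissue, the contrast was again the one that chose the stretches, so nothing is read from its shares. Of the stretch members, 40 were called higher in 2063A for young leaf, 47 for flower bud, 40 for silique and 50 for root, where the shares of all tested genes were 4.33%, 6.78%, 4.32% and 5.36%. The gap counts were 17, 34, 17 and 14. No stretch member was called lower in any tissue, also not at an unadjusted p below 0.05, and of the gap members 1, 2, 1 and 1 were, against 5%, 5.52%, 4.72% and 5.43% of all tested genes. All 4 tissues were called for 28 stretch members and 2 gap members (1.57% of all tested genes). The median ratio of stretch members with a mean FPKM of 5 or more in the tissue was 3.95 for young leaf, 3.22 for flower bud, 3.65 for silique and 3.76 for root, and that of gap members was 2.01, 2.11, 2.00 and 1.92. The flower bud count in the gaps was higher than in the other tissues while the flower bud ratio was close to theirs. A limma fit on the 4 young leaf libraries alone called 0 stretch members (0 of all genes). At an unadjusted p below 0.05 and at least 2-fold it put 35 stretch members higher, and 1883 of all 54206 tested genes. The young leaf calls thus rest on the spread shared with the other tissues.

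**Figure D5:**
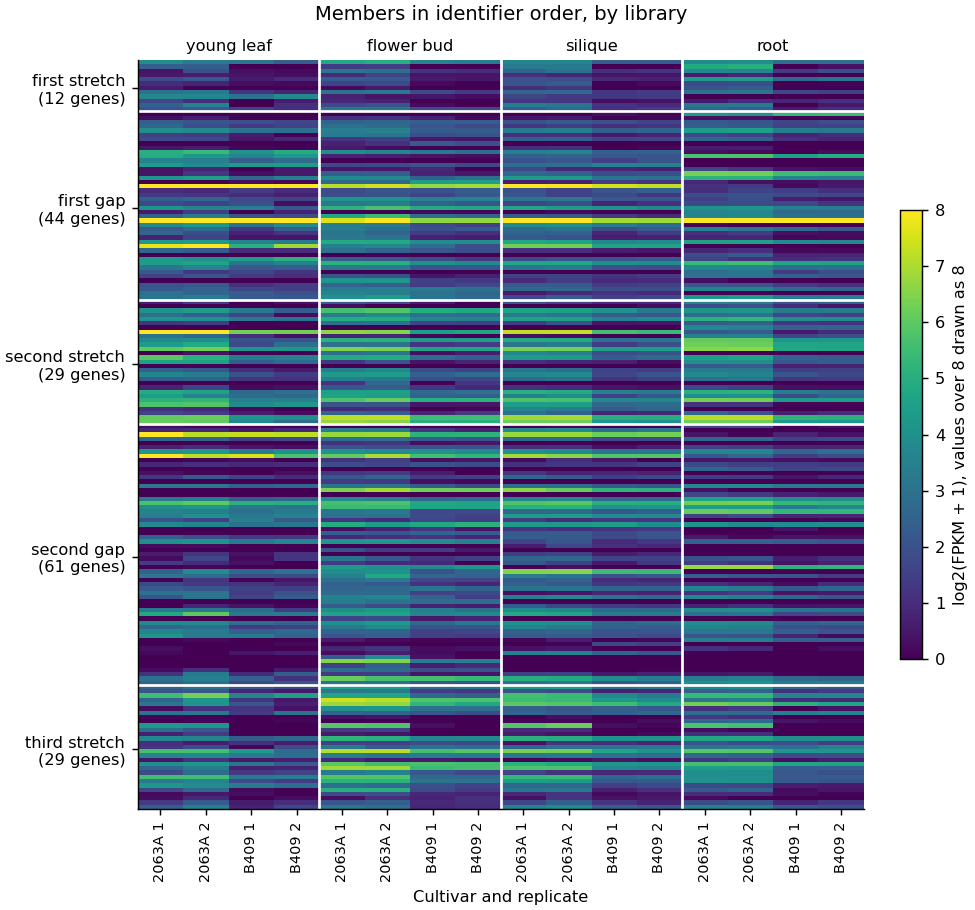
Level on the log2(FPKM + 1) scale of each member (rows, in identifier order) in each library (columns, 2063A left of B409 within each tissue), with white lines between segments and tissues. The columns of 2063A are brighter than those of B409 in most rows of the stretches, and a few rows, such as BnaA02g27980D in the first gap, are bright in 3 tissues and dark in root.

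Differences between tissues, averaged over both cultivars, were not used to choose the members and were tested. Each tissue was set against the mean of the other 3 with limma over all tested genes. In flower bud 38 members rose and 17 fell (21.7% and 9.71% of members, against 14.1% and 9.28% of all tested genes). In silique 19 rose and 18 fell (10.9% and 10.3% of members, against 9.34% and 5.61%), and in root 29 rose and 39 fell (16.6% and 22.3%, against 18.7% and 14.9%). In young leaf 21 rose and 31 fell (12% and 17.7%, against 9.71% and 20.5%). That split turned round after quantile normalization, with 30 higher and 20 lower, and so did that of all tested genes, at 13.4% higher and 10.6% lower. Over all tested genes the median change for young leaf was -0.51 before quantile normalization and -0.18 after it. A gene that passed the filter on low values through 1 tissue alone had to be high there. Without such genes 29 of 158 members rose in flower bud (18.4%, against 11.9% of all tested genes left after the same step), 17 of 169 in silique (10.1%, against 7.75%), 19 of 159 in root (11.9%, against 12.9%) and 21 of 175 in young leaf (12%, against 8.80%). With a pseudocount of 0.1 in place of 1, 6 of the 8 counts moved by over 1.5 times. Flower bud then had 58 members higher and 30 lower (25.7% and 18.2% of all tested genes) and silique had 32 and 31 (16.7% and 13.9%). The members lower numbered 61 in young leaf (40.5% of all tested genes) and 59 in root (24.4%).

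Among the members that changed, all 4 libraries of the tissue lay beyond the other 12 for some. In flower bud this held for 17 rises and 1 fall, against 9.3% and 2.09% of all tested genes, and in root for 16 rises and 15 falls, against 15.2% and 9.4%. In young leaf it held for 8 rises and 4 falls, against 5.82% and 9%, and in silique for 4 rises and 0 falls, against 3.82% and 0.544%. Of these rises, 7 in flower bud, 9 in root and 2 in silique were of members that passed the filter through that tissue alone.

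The largest changes without overlap were in root. BnaA02g27980D, in the first gap, had 1.25 and 1.5 FPKM in root of 2063A and 0.145 and 0.468 in root of B409, and 107 to 1710 outside root (log2 change -7.42, SE 0.11, limma adjusted p = 3.7e-14). The same gene rose in young leaf, at 1267 and 1710 in 2063A and 655 and 701 in B409 (log2 change 4.79, SE 0.11, adjusted p = 8.6e-12). BnaA02g29010D, the second such gene, had at most 0.735 in root and 34.0 to 291 outside it (log2 change -6.21, SE 0.15, adjusted p = 3.1e-12), and it too rose in young leaf (3.15, SE 0.15, adjusted p = 4.2e-09). Both genes had their lowest values in root in each cultivar.

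Among the members higher in root without overlap, BnaA02g27720D and BnaA02g29610D had the largest log2 changes. BnaA02g27720D, at 15.6 to 42.1 in root, was listed at 0 in 10 of the 12 libraries of other tissues. It passed the filter through root alone, so no test is given for it. BnaA02g29610D had 108 and 111 in root of 2063A and 34.6 and 36.7 in root of B409, and at most 18.8 outside it (log2 change 4.59, SE 0.09, adjusted p = 4.6e-13). Its flower bud values, at 18.8 and 15.7 in 2063A and 13.3 and 17.2 in B409, overlapped between the cultivars, unlike those in root.

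Among the members higher in flower bud without overlap, BnaA02g30010D of the second gap had the largest log2 change. It had 90.1 and 89.3 in flower bud of 2063A and 9.17 and 9.80 in flower bud of B409, and all 12 libraries of the other tissues listed it at 0. It passed the filter through flower bud alone, so no test is given for it. BnaA02g30200D of the third stretch had 176 and 143 in flower bud of 2063A, 55.6 and 52.8 in flower bud of B409, and 0.442 to 44.4 outside it (log2 change 3.54, SE 0.23, adjusted p = 7.7e-08). The 1 fall in flower bud without overlap was that of BnaA02g27870D, with at most 0.727 there and 3.24 to 53.3 outside it (log2 change -3.43, SE 0.14, adjusted p = 1.2e-09).

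In silique BnaA02g29640D had 91.7 and 92.6 in 2063A and 44.0 and 42.4 in B409, and at most 15.7 outside it (log2 change 3.93, SE 0.19, adjusted p = 6.9e-09). BnaA02g29990D had 10.5 and 11.0 in 2063A and 5.11 and 3.50 in B409, and at most 0.576 outside it, and is given without a test because it passed the filter through silique alone. Among the falls in young leaf without overlap, the largest were those of 2 members of the third stretch. BnaA02g30210D had 0.582 to 17.6 in young leaf and 25.4 to 111 outside it (log2 change -3.14, SE 0.25, adjusted p = 3.9e-07), and BnaA02g30380D had 0.0914 to 2.69 in young leaf and 3.96 to 10.8 outside it (log2 change -1.76, SE 0.27, adjusted p = 8.7e-05). Both had young leaf replicates that differed by more than 2-fold within a cultivar.

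The size of the cultivar difference varied between tissues past limma's threshold (moderated F, adjusted p below 0.05) for 18 of the 70 stretch members and 31 of the 105 gap members, where the share of all tested genes was 20.9%. These counts use the same cultivar values that chose the stretches, so nothing is read from them, and 5 of the 18 and 15 of the 31 passed the filter through 1 tissue alone. In the stretches the 3 with the smallest p were BnaA02g28780D, BnaA02g27500D and BnaA02g30270D. BnaA02g28780D had 3.75 and 3.94 in root of 2063A and 0.653 and 0.704 in root of B409, and all 12 libraries of the other tissues listed it at 0. BnaA02g30270D had 5.05 and 6.16 in root of 2063A and 0.382 and 0.165 in root of B409, and at most 0.229 in any other library. Both passed the filter through root of 2063A alone.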

How the data were processed

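Per the file headers, the authors deposited 1 file of FPKM values per library, with 1 value per gene identifier. Tools listed in the submitters' processing notes are Cufflinks 2.1.1, TopHat2 and Trimmomatic. Not given in the sources used here are the genome build, the annotation and the counting of reads shared by homeologs. FPKM is not a count, so no count model, counting interval or floor was used, and only relative depth could be read, from the step between low values. An FPKM of 0 can be a failed estimate and is written as listed at 0. Near-identical genes may share reads.

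Groups and replicates were taken from the labels. Values were transformed to log2(FPKM + 1), with a filter of FPKM 1 or more in at least 2 libraries (54206 genes). Fold changes on this scale understate the change of low genes. limma 3.58.1 in R 4.3.3 was fitted to all 16 libraries with 1 mean per cultivar and tissue, and eBayes with trend (8 residual and 3.35 prior degrees of freedom). Calls needed a two-sided Benjamini-Hochberg adjusted p below 0.05 over all tested genes and a log2 change of at least 1. The script was tested on simulated data. Ratios are of mean FPKM over 8 libraries a cultivar, for genes with a mean FPKM of 5 or more. Order along a chromosome is that of the identifier numbers.

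The range, the stretches and the lists were chosen with earlier results of these data known. The rule for named genes took, in each stretch, the 4 largest and 2 lowest cultivar differences and the 2 highest mean FPKM. In each gap it took the 2 largest and 2 lowest differences. For each tissue it took the 2 largest rises and the 2 largest falls among called members without overlap. It also took the genes on both sides of each stretch edge, members with FPKM 1 or more in all 8 libraries of one cultivar and at most 0.1 in all 8 of the other (0 were found), and the 3 stretch members with the smallest interaction p. The RefSeq gene table matched 0 of the 101040 identifiers, so no gene names, sequences or coordinates are given. Alternatives were another pseudocount, other filters, quantile normalization, equal totals, a replicate block, each library left out, each tissue fitted alone and shortened stretches.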

Additional observations from a re-analysis of the deposited data

Results flagged for a closer look

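For 16 members named in the text the difference between 2063A and B409 varied between tissues past the threshold of limma's moderated F over the 3 interaction contrasts, as it did for 20.9% of all tested genes. The values tested are those that chose the stretches, so no p is given and nothing is read from the count. The value given for each member is the largest minus the smallest of its 4 tissue differences on the log2(FPKM + 1) scale. Of the 16 members, 9 passed the filter on low values through 1 tissue only, and 5 of these through 1 tissue of 1 cultivar only.

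In the first stretch the value was 3.31 for BnaA02g27500D, which had a difference of 4.76 in root and 1.45 in flower bud and was higher in 2063A in all 4 tissues. In the second stretch it was 1.53 for BnaA02g28780D and 1.33 for BnaA02g28560D, which passed the filter only through root of 2063A, and 1.14 for BnaA02g28650D, which passed it only through root. In the third stretch it was 2.38 for BnaA02g30270D, which passed only through root of 2063A. It was 1.54 for BnaA02g30290D, with differences between 4.29 in young leaf and 5.83 in silique, and 1.34 for BnaA02g30520D, with differences between 1.70 in root and 3.04 in flower bud.

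In the first gap the value was 1.78 for BnaA02g28180D, whose largest difference was 2.47 in flower bud. It was 1.18 for BnaA02g27720D, which passed only through root, and 2.04 for BnaA02g27970D, and these were lower in 2063A by differences of -1.18 in root and -1.79 in flower bud. In the second gap it was 3.11 for BnaA02g30010D, which passed only through flower bud, and 1.58 for BnaA02g29970D, which passed only through silique of B409. It was 1.59 for BnaA02g28960D, which passed only through root of 2063A, and 1.53 for BnaA02g29610D. BnaA02g29990D, which passed only through silique, had 1.65, with differences of 1.16 in silique and -0.48 in young leaf. BnaA02g29010D had 1.92, with differences of 1.62 in flower bud and -0.30 in root.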

How the results depend on the processing

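With a pseudocount of 0.1 the gap members called higher in 2063A came to 40 (main 14) and those called lower to 1, and the cause was not tested. With it, 61 members were lower in young leaf, 58 higher and 30 lower in flower bud, 32 higher and 31 lower in silique and 59 lower in root (40.5%, 25.7%, 18.2%, 16.7%, 13.9% and 24.4% of all tested genes), and the median differences were 2.08, 1.92 and 1.64 in the 3 stretches and 1.0 and 0.87 in the 2 gaps. Back on the log2(FPKM + 1) scale, over members with a mean FPKM of 5 or more, the medians were 2.06, 1.75 and 1.66 in the stretches. That of the first stretch rests on 2 members. The second gap had 0.79. With a filter at FPKM 5 the tissue-dependent stretch members were 11 and the third stretch median 1.43, with fewer genes tested. Quantile normalization left 20 members lower in young leaf. Without genes that passed the filter through root alone, a choice made after seeing the data, 19 members were higher in root. Young leaf fitted alone called 0 stretch members (limma, 35 higher at an unadjusted p below 0.05 and 2-fold, against 1883 of all 54206 tested genes). Without the young leaf libraries, an alternative chosen after seeing the data like the FPKM ratio, the tissue-dependent stretch members were 28. With each of the 16 libraries left out in turn, stretch calls were 47 to 50 and gap calls 13 to 17. For named genes, 1406 alternative values kept the direction and the side of the threshold, 9 passed it newly and 0 reversed.

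Same-numbered libraries deviated together in young leaf (correlation 0.33 over 54206 genes) but not in the other tissues (-0.04 to 0.04), so the numbers were not taken to pair the samples. With the replicate block 50 stretch members and 14 gap members were called higher, the same genes as without it, and by tissue 40 stretch members for young leaf, 46 for flower bud, 39 for silique and 49 for root. FPKM without counts gives no counting error, so low members are the least certain.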
